A study of Saccharomyces cerevisiae with 4 samples.

Results

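The subtelomeric gene families COS, YRF1, AAD, IMA, MAL and MPH were followed in manganese-adapted and control cultures of Saccharomyces cerevisiae by RNA-seq. Members were the rows of the deposited table whose gene symbol names a numbered copy of one of these families, which gave 40 of 7126 features. They comprised 11 COS, 8 YRF1, 7 AAD, 5 IMA, 6 MAL and 2 MPH genes, and COS111. COS111 matched the symbol pattern only by its name: the R64 annotation describes a gene of resistance to the antifungal drug ciclopirox olamine, unrelated to the family, and it is kept apart from the COS family below. The symbol pattern itself uses no measured value, although these families were proposed with earlier results of the data known.

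The groups were 2 manganese-adapted and 2 control samples. The adapted cells had grown for 120 h with 2.5 mM MnSO4 and the control cells for 18 h at an estimated 0.0036 mM Mn2+, both in YPD with 2% glucose and to the stationary stage. All 4 samples carry the same genotype in the labels, strain CRY, MATa, with ade2, his3, leu2, trp1 and ura3 named as deleted. Culture time and manganese differ together, so their effects cannot be told apart, and the labels do not state whether the replicates were grown separately. The p-values therefore reflect the spread among these 4 samples, part or all of which may be technical.

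Yeast chromosome ends hold families of near-identical genes that recombination has spread among the ends, and chromatin near telomeres is known to silence genes there. COS genes encode membrane proteins of the endosome that help to sort plasma membrane proteins to the vacuole for degradation. YRF1 genes encode a helicase within the Y' element next to the telomere. AAD genes encode putative aryl-alcohol dehydrogenases of the aldo-keto reductase type. MAL genes form complex loci of a maltose permease, a maltase and an activator, a system induced by maltose and repressed by glucose, while IMA genes encode isomaltases and MPH genes alpha-glucoside permeases.

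Levels are given in CPM, the reads of a gene scaled to a fixed library total, after edgeR's TMM scaling adjusted each library's size. The 4 libraries held 12307870 to 14184276 reads, and their adjusted sizes were 12666480 to 14128294. On the adjusted sizes 3 reads, taken as the detection floor, correspond to 0.212 to 0.237 CPM. Reads were counted for all 5 genes that the labels name as deleted, at 37.0 CPM (HIS3) to 830.2 CPM (LEU2). The a-cell receptor gene STE2 was at 59.8 to 113 CPM. The a-cell genes MFA1 and MFA2 were at 8.48 to 13.45 CPM and at 17.1 to 32.4 CPM. The alpha-cell gene STE3 was at 26.6 and 30.2 CPM in manganese-adapted libraries and at 6.44 and 5.41 CPM in control libraries. The alpha-cell gene SAG1 was at 98.2 and 103 CPM in manganese-adapted libraries and at 53.7 and 52.5 CPM in control libraries. SAG1 thus lay above STE2 in the manganese-adapted libraries and below it in the control libraries. Whether the cells match the MATa label was not tested.

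Of the 40 members, 29 reached 1 CPM in at least 2 libraries and were tested, and the other 11 had 0 reads in every library. How much of each gene is distinct from the rest of the genome differed widely among them. The share of 50-base windows of a gene that occur only once in R64, the reference assembly of strain S288C that the submitters' notes call sacCer3, was 0% for 10 of the 38 family members placed there. All 10 of these were at 0 reads: COS2, COS3, IMA3, IMA4, YRF1-1, YRF1-3, YRF1-5, YRF1-6, YRF1-7 and YRF1-8. Of the 17 members with at least 50% of windows unique, 1 was at 0 reads. That exception was COS12, in which 100% of windows are unique. Among all 6047 features matched to R64, those at 0 reads were 71.4% of the 147 features with under 5% of windows unique and 0.658% of the 5777 with at least 50%. A listed 0 for a copied gene therefore does not show that its RNA was absent, and the copies that CRY carries were not measured.

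**Figure D1:**
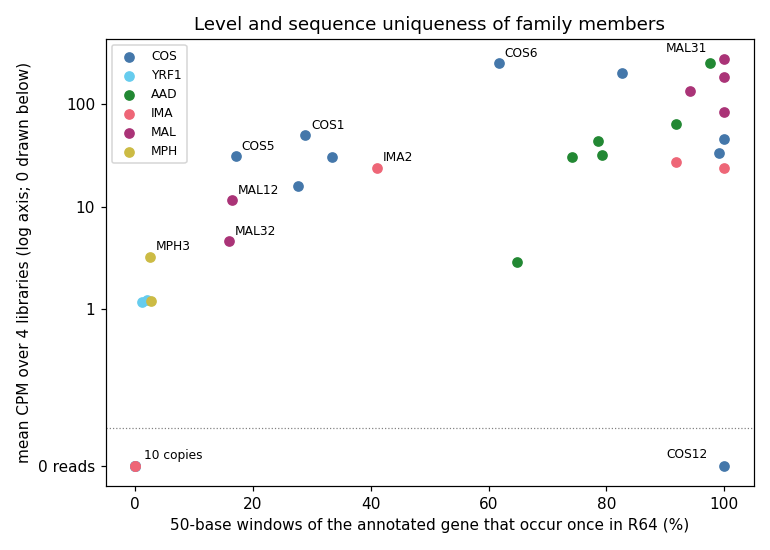
Mean CPM over the 4 libraries (log axis, with genes at 0 reads drawn below the dotted line) against the percentage of 50-base windows of each gene that occur once in R64, 1 point per family member placed in R64. The 10 copies with 0% unique windows sit at 0 reads, COS12 is at 0 reads with 100% unique windows, and the remaining members lie above 1 CPM.

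The sequences behind these zeros are shown for 3 sets of copies, because they mark which genes can be told apart. Each is a 60-base stretch of coding sequence from R64, 5' to 3' on the gene's own strand, taken where the first-named gene differs most from the copy it is compared with. Capitals in the isomaltase set mark bases that differ from IMA3.
IMA2, chrXV:23719-23778 (minus strand): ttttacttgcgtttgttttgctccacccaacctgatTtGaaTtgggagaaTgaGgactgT
IMA1, chrVII:1068416-1068475 (minus strand): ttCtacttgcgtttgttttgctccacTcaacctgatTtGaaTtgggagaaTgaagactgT
IMA3, chrIX:17978-18037 (minus strand): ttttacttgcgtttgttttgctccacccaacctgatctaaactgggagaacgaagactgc
IMA4, chrX:17961-18020 (minus strand): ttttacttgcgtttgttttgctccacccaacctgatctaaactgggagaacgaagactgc
IMA3 and IMA4 are identical over their whole length of 1770 bp, and both had 0 reads. IMA2 differs from IMA3 at 25 bases (98.6% identity) and had 139 to 498 reads per library.

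Capitals in the COS set mark bases that differ from COS3.
COS4, chrVI:6627-6686 (plus strand): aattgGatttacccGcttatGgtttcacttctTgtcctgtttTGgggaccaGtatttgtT
COS2, chrII:811219-811278 (minus strand): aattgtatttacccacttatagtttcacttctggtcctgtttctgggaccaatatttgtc
COS3, chrXIII:7445-7504 (plus strand): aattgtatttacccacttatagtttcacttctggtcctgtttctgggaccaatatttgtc
COS2 and COS3 are identical over 1140 bp and had 0 reads, whereas COS4, with 27.7% of windows unique, had 116 to 307 reads.

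Capitals in the maltase set mark bases of MAL12 that differ from MAL32.
MAL12, chrVII:1076797-1076856 (plus strand): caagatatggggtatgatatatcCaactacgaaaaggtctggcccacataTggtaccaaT
MAL32, chrII:805549-805608 (plus strand): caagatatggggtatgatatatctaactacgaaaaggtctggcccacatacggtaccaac
The 2 maltase genes differ at 8 of 1755 bases (99.5% identity), and 16.4% and 15.9% of their windows are unique.

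Of the 29 members tested, 17 rose in manganese-adapted libraries, 2 fell and 10 did not pass (limma, adjusted p under 0.05 over all 6296 tested features). Over all tested features 68.5% passed in either direction, 33.6% as higher and 34.9% as lower. A rise of at least 1 on the log2 scale was seen in 6 of the 29 members, IMA1, IMA2, IMA5, AAD10, COS4 and COS7, and in 8.28% of all tested features. Both manganese-adapted libraries lay above both control libraries for 21 members and below them for 4, against 42.4% and 43.3% of all tested features. The members' median log2 fold change was 0.54, against -0.01 over all tested features. MPH2 and YRF1-2 reached the minimum of 1 CPM only in the manganese-adapted libraries, so their entry into the test depended on their being high there. Their calls, and their place among the 21 members without overlap, carry no weight. Without features that reached the minimum in 1 group only, 15 of 27 members rose and 2 fell around a log2 median of 0.48, and 33.2% of the 6213 features left rose and 35.1% fell. By the authors' deposited table, 19 of the 40 members had a false discovery rate under 0.05, against 59.2% of its 7126 features. These shares have unlike bases: 11 of the 40 members, but only 574 (8.06%) of the 7126 features, were at 0 reads in every library and could not pass.

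**Figure D2:**
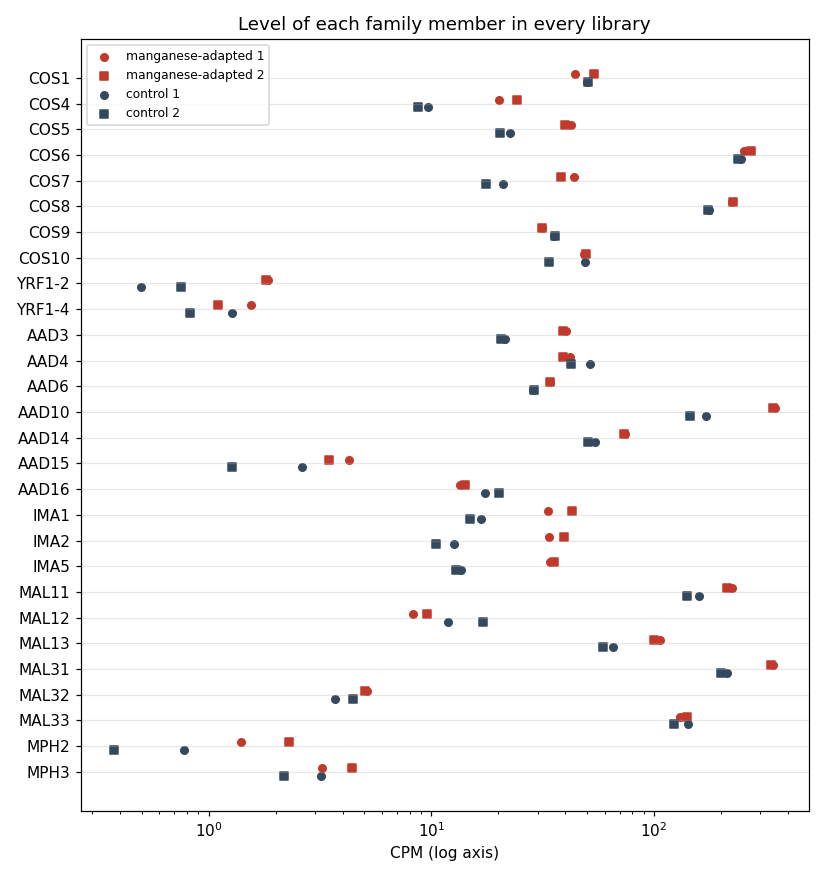
CPM (log axis) of each of the 28 tested family members in the 2 manganese-adapted libraries (red) and the 2 control libraries (dark), with circles for replicate 1 and squares for replicate 2. The 3 isomaltase genes lie at 33.6 to 42.6 CPM in manganese-adapted and 10.4 to 16.7 CPM in control libraries, and the YRF1 and MPH genes lie under 5 CPM.

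The isomaltase family had the largest ratio of the 6 families. Its 3 counted members, IMA1 (chrVII:1067222-1068991), IMA2 (chrXV:22525-24294) and IMA5 (chrX:24341-26086), all on the minus strand of R64, rose 2.41-fold to 3.17-fold in CPM. IMA2 was at 33.6 and 39.3 CPM in manganese-adapted and at 12.6 and 10.4 CPM in control libraries (log2 fold change 1.58 ± 0.13 SE, limma adjusted p 2.67e-06). IMA5, the most diverged of the family with 69.1% identity to its nearest copy, was at 34.0 and 35.4 CPM in manganese-adapted and at 13.6 and 12.8 CPM in control libraries (1.33 ± 0.11 SE, limma adjusted p 2.68e-06). IMA1, the major isomaltase, was at 33.6 and 42.6 CPM in manganese-adapted and at 16.7 and 14.9 CPM in control libraries (1.21 ± 0.13 SE, limma adjusted p 1.76e-05). For each gene both adapted libraries lay above both controls, as for 42.4% of all tested features. In IMA5 100% of windows are unique, in IMA1 91.9% and in IMA2 41.1%. Levels of the 3 genes are not compared with each other, since the length over which reads could be placed differs among them.

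The promoters of these 3 genes, which moved together, are shown from 250 bases before the start codon to 50 bases after its first base in R64. Capitals mark a core word of the glucose repressor Mig1 (the words GCGGGG and CCGGGG and GTGGGG and CTGGGG, searched on both strands).
IMA1, chrVII:1068942-1069241 (minus strand): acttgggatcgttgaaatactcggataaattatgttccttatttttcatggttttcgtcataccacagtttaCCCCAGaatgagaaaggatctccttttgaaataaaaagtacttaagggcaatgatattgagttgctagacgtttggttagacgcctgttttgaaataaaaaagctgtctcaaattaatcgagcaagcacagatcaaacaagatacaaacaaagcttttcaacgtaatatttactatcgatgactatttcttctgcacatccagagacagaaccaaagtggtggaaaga
IMA2, chrXV:24245-24544 (minus strand): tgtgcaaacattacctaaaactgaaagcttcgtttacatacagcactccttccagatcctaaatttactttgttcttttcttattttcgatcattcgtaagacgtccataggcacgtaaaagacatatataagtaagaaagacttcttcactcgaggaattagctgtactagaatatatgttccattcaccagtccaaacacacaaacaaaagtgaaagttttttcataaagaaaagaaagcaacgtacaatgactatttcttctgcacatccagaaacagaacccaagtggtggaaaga
IMA5, chrX:26037-26336 (minus strand): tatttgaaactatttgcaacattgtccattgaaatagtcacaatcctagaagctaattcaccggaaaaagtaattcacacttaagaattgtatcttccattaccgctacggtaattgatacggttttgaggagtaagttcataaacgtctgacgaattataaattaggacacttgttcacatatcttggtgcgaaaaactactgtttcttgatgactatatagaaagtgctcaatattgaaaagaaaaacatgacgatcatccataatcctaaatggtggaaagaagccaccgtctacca
A Mig1 core word was found in 1 of the 5 IMA promoters (IMA1), in 2 of the 6 MAL promoters (MAL13 and MAL33) and in both MPH promoters. Of all 6001 promoters of the same length, 11.6% held one. Bases further upstream were not searched. The middle of the region shared by MAL31 and MAL32, and of that shared by MAL11 and MAL12, was therefore left out.

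In the maltose loci both permease genes rose, while of the maltase genes MAL12 fell and MAL32 did not pass. MAL31 (chrII:802631-804475, minus strand), the maltose permease of the MAL3 locus, was at 344 and 336 CPM in manganese-adapted and at 212 and 199 CPM in control libraries (log2 fold change 0.72 ± 0.08 SE, limma adjusted p 2.69e-05). MAL11 (chrVII:1073963-1075813, minus strand), the alpha-glucoside permease of the MAL1 locus, was at 223 and 213 CPM in manganese-adapted and at 159 and 140 CPM in control libraries (0.54 ± 0.09 SE, limma adjusted p 0.000326). For both permeases the 2 adapted libraries lay above both controls, as for 42.4% of all tested features, and all of their windows are unique. The maltase MAL12 (chrVII:1076599-1078353, plus strand) fell, with 8.26 and 9.55 CPM in manganese-adapted and 11.8 and 17.0 CPM in control libraries (-0.62 ± 0.17 SE, limma adjusted p 0.00821). MAL12 missed the threshold when control replicate 2 (-0.38, limma adjusted p 0.0821) or manganese-adapted replicate 1 (-0.52, limma adjusted p 0.112) was left out. Its near-identical copy MAL32 was at 5.16 and 5.05 CPM in manganese-adapted and at 3.68 and 4.43 CPM in control libraries and did not pass (limma adjusted p 0.167). How reads that fit both copies were counted is not stated, and identical copies such as IMA3 and IMA4 were at 0 reads. If such reads were dropped, MAL12 and MAL32 hold only reads that tell them apart, and their sum lacks the shared ones. The sum of the pair was at 13.4 and 14.6 CPM in manganese-adapted and at 15.5 and 21.4 CPM in control libraries. Its log2 ratio of -0.40 was -0.15 without control replicate 2 and -0.61 without control replicate 1. Of the permeases, in which every window is unique, MAL31 was at 184 CPM per kb and MAL11 at 118 CPM per kb in manganese-adapted libraries, and in control libraries MAL31 was at 111 CPM per kb and MAL11 at 80.7 CPM per kb.

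The activator genes of the 2 loci differed in call. MAL13 was at 106 and 99.9 CPM in manganese-adapted and at 65.4 and 59.1 CPM in control libraries (log2 fold change 0.72 ± 0.09 SE, limma adjusted p 4.83e-05). MAL33 was at 130 and 141 CPM in manganese-adapted and at 143 and 123 CPM in control libraries, with overlapping groups (0.03 ± 0.10 SE, limma adjusted p 0.769). Whether MAL13 and MAL33 differ from each other in their change was not tested. Both activators are annotated in R64 as nonfunctional in S288C, and the alleles of CRY were not measured.

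The alpha-glucoside permease genes MPH2 and MPH3 were near the limit of what could be counted, and 2.75% and 2.50% of their windows are unique, since they match over all 1808 aligned bases. MPH2 had 19 and 29 reads in manganese-adapted and 11 and 5 reads in control libraries, a log2 fold change of 0.85 ± 0.26 SE. It reached 1 CPM only in the manganese-adapted libraries, so it could enter the test only as higher there and no p is given. MPH3 had 44 and 56 reads in manganese-adapted and 45 and 29 reads in control libraries and did not pass (0.40 ± 0.21 SE, limma adjusted p 0.119). The log2 fold change of MPH3 was 0.59 without control replicate 1 and 0.20 without control replicate 2.

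The list of sucrose and maltose regulation held 13 genes outside the families, with 5 rises, 2 falls, 6 genes not past the threshold and a list median of 0.04 on the log2 scale. Rises made up 38.5% of the list and falls 15.4%, against 33.6% and 34.9% of all tested features. SUC2, the invertase that splits sucrose and is repressed by glucose, rose to 698 and 733 CPM in manganese-adapted libraries, against 273 and 299 CPM in control libraries (limma adjusted p 1.04e-06). MTH1, a regulator of glucose transporter genes (log2 fold change 1.19), and MIG2, a repressor related to Mig1 (0.90), rose, and the hexokinase gene HXK2 fell by 1.02 on the log2 scale. Once the trend with coding length was taken out, 5 of the 13 fell in place of 2.

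**Figure D3:**
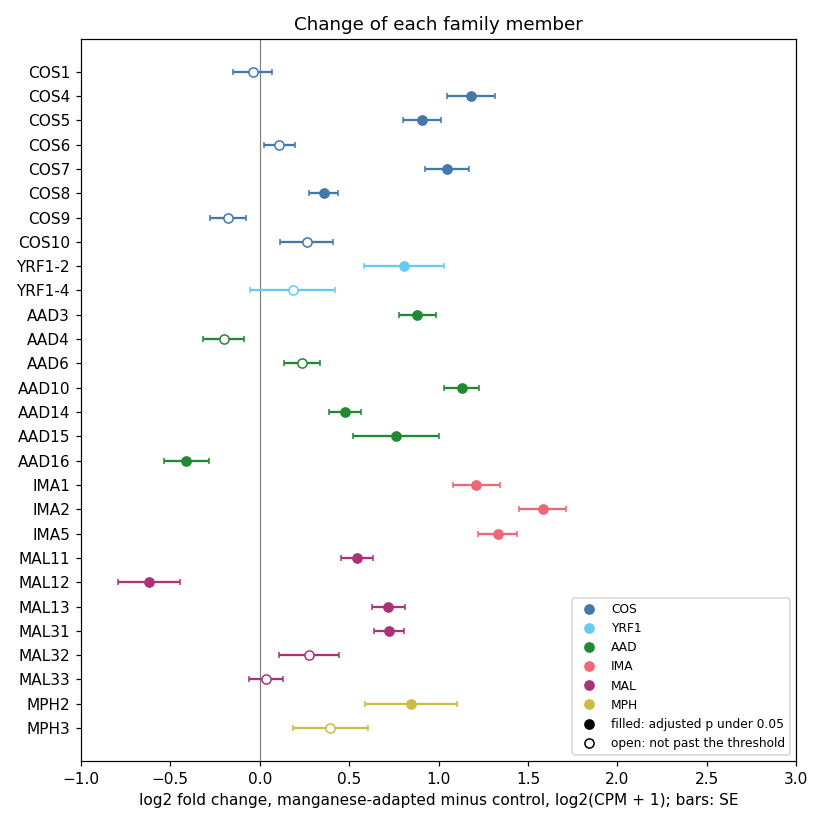
Change of each of the 28 tested family members in manganese-adapted over control libraries, as log2 fold change of CPM + 1, with limma standard errors as bars. Filled points passed at an adjusted p under 0.05: all 3 IMA genes rose by over 1, 4 COS genes rose, MAL12 and AAD16 fell, and the other open points did not pass.

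In the AAD family 4 of 7 members rose, 1 fell and 2 did not pass, while 33.6% of all tested features rose and 34.9% fell. AAD10 (chrX:727405-728271, plus strand) had the highest CPM and the largest fold change of the family, with 351 and 343 CPM in manganese-adapted and 172 and 145 CPM in control libraries (log2 fold change 1.13 ± 0.10 SE, limma adjusted p 3.30e-06). AAD3 (chrIII:313890-314981, plus strand) was at 40.0 and 38.8 CPM in manganese-adapted and at 21.4 and 20.5 CPM in control libraries (0.88 ± 0.10 SE, limma adjusted p 2.74e-05). AAD14 (chrXIV:16118-17248, minus strand), next in CPM, was at 73.9 and 73.2 CPM in manganese-adapted and at 54.6 and 50.5 CPM in control libraries (0.48 ± 0.09 SE, limma adjusted p 0.000772). In these 3 genes both adapted libraries lay above both controls, as in 42.4% of all tested features.

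AAD15, a short copy of 432 bp that is 97.7% identical to AAD3, had 58 and 44 reads in manganese-adapted and 37 and 17 reads in control libraries (0.76 ± 0.24 SE, limma adjusted p 0.0162). It missed the threshold when control replicate 2 (limma adjusted p 0.152), manganese-adapted replicate 1 (limma adjusted p 0.15) or manganese-adapted replicate 2 (limma adjusted p 0.0668) was left out. AAD4 was at 41.9 and 39.2 CPM in manganese-adapted and at 51.7 and 42.2 CPM in control libraries and did not pass (limma adjusted p 0.138). Its log2 fold change was -0.34 without control replicate 2 and -0.06 without control replicate 1. AAD6 and AAD16 are 2 rows of the table for reading frames that R64 annotates as 1 pseudogene split by a frameshift. AAD16 fell, with 13.5 and 14.1 CPM in manganese-adapted and 17.4 and 20.1 CPM in control libraries (-0.41 ± 0.13 SE, limma adjusted p 0.0133), and AAD6, at 34.2 and 34.1 CPM in manganese-adapted and 28.7 and 29.0 CPM in control libraries, did not pass (0.24 ± 0.10 SE, limma adjusted p 0.0561). Their sum was 48.0 ± 0.37 CPM in manganese-adapted and 47.6 ± 2.05 CPM in control libraries (SD, n = 2 each). AAD16 missed the threshold when control replicate 2 (limma adjusted p 0.0992), manganese-adapted replicate 1 (0.0878) or manganese-adapted replicate 2 (0.0574) was left out. AAD6 passed with a pseudocount of 10 (limma adjusted p 0.0476) and once the trend with coding length was taken out (0.0276).

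The region before AAD10 is shown because it resembles coding sequence of another family member. The 250 bases before its annotated start, with the first 50 bases of the gene, read as follows in R64.
AAD10, chrX:727155-727454 (plus strand): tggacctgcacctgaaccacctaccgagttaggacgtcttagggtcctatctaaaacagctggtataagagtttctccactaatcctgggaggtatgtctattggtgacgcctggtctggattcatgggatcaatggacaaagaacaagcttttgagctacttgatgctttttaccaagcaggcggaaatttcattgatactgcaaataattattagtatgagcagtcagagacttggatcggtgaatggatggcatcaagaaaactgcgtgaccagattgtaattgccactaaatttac
Of those 250 bases, 247 aligned to bases 18 to 264 of the AAD14 coding sequence with 79.4% identity, so AAD10 as annotated (867 bp) begins inside a stretch related to the coding part of AAD14 (1131 bp). Words of the oxidative stress factor Yap1 (TTACTAA or TTAGTAA, which are the same site on opposite strands) were absent there and found in 1 of the 6 AAD promoters, that of AAD6, against 7.45% of all promoters. For AAD10 the search covered only this stretch that resembles coding sequence, and bases further upstream were not searched.

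Outside the family, the list of 6 other aldo-keto reductase genes and YAP1 had 1 rise and 4 falls, with 2 not past the threshold. Of all tested features, 33.6% rose and 34.9% fell. The rise was YAP1 itself (log2 fold change 0.37, limma adjusted p 0.00252), the oxidative stress regulator, which missed the threshold once the trend with coding length was taken out. Among the reductases YPR1 (-0.64), GRE3 (-0.63), which reduces aldoses, and YJR096W (-0.47) fell.

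Of the 11 COS genes, 8 could be tested, and 4 of those rose, 0 fell and 4 did not pass. The shares over all tested features were 33.6% higher and 34.9% lower. COS4 (chrVI:6426-7565, plus strand) had the largest fold change, with 20.2 and 24.2 CPM in manganese-adapted and 9.70 and 8.71 CPM in control libraries (log2 fold change 1.18 ± 0.14 SE, limma adjusted p 2.41e-05). COS7 (chrIV:1802-2953, plus strand) was at 43.7 and 38.2 CPM in manganese-adapted and at 21.0 and 17.7 CPM in control libraries (1.05 ± 0.12 SE, limma adjusted p 2.69e-05). COS5 (chrX:742848-743999, minus strand), which is 95.6% identical to COS7, was at 42.6 and 39.6 CPM in manganese-adapted and at 22.5 and 20.4 CPM in control libraries (0.91 ± 0.11 SE, limma adjusted p 2.98e-05). Between 17.0% and 33.4% of the windows of these 3 genes are unique, and the groups do not overlap for any of them.

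The 2 COS genes with the highest CPM had smaller fold changes. COS6 (chrVII:1081584-1082729, minus strand) was at 252 and 272 CPM in manganese-adapted and at 246 and 239 CPM in control libraries and did not pass (0.11 ± 0.09 SE, limma adjusted p 0.274). COS8 (chrVIII:6401-7546, plus strand) was at 224 and 226 CPM in manganese-adapted and at 176 and 175 CPM in control libraries and rose by 0.36 ± 0.08 SE (limma adjusted p 0.00236). In COS6 61.7% of windows are unique and in COS8 82.6%, against 17.0% to 33.4% in COS1, COS4, COS5 and COS7, so levels are not compared among these copies.

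COS1 (-0.04), COS9 (-0.18) and COS10 (0.26) did not pass. COS10 was at 48.6 and 49.3 CPM in manganese-adapted and at 48.9 and 33.7 CPM in control libraries. Its log2 fold change was 0.53 without control replicate 1 and 0.002 without control replicate 2. COS12 had 0 reads in all 4 libraries although 100% of its windows are unique, so its level was under the floor of 0.212 to 0.237 CPM, which covers counting error only. COS111, which is unrelated to the family, was at 291 and 306 CPM in manganese-adapted and at 161 and 146 CPM in control libraries (0.95 ± 0.09 SE, limma adjusted p 5.28e-06).

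Among 10 DUP240 genes, a family related to COS, 3 rose, 2 fell and 5 did not pass, against 33.6% higher and 34.9% lower over all tested features. YCR007C rose to 118 and 132 CPM in manganese-adapted libraries, against 48.0 and 42.0 CPM in control libraries, and PRM8 rose by 0.70, while YAR028W (-0.53) and YHL044W (-0.25) fell. When control replicate 1, manganese-adapted replicate 1 or manganese-adapted replicate 2 was left out, 1 of them fell, and once the trend with coding length was taken out 0 fell. In the multivesicular body pathway, the route on which COS proteins act, 5 of 17 genes rose, 8 fell and 4 did not pass (list median -0.14 on the log2 scale). Rises were 29.4% and falls 47.1% of this pathway list, beside the same 33.6% and 34.9% over all tested features. VPS36 (1.175), VPS27 (0.83) and DOA4 (0.75) rose, and MVB12 fell by 1.38 on the log2 scale.

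Only 2 of the 8 YRF1 copies had reads, and both had few. YRF1-2 had 25 and 23 reads in manganese-adapted and 7 and 10 reads in control libraries, which is 1.84 and 1.82 CPM against 0.50 and 0.75 CPM, a log2 fold change of 0.81 ± 0.23 SE. It too reached 1 CPM only in the manganese-adapted libraries, so no p is given. YRF1-4 had 21 and 14 reads in manganese-adapted and 18 and 11 reads in control libraries, with overlapping groups (0.18 ± 0.24 SE, limma adjusted p 0.504). In these copies 2.00% and 1.22% of windows are unique, and YRF1-2 overlaps an annotated gene on each strand, YER189W and YER190C-B. YRF1-1, YRF1-5 and YRF1-8 are identical over 5391 bp, and YRF1-3 and YRF1-7 over 5728 bp.

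Of 20 genes of telomere maintenance and silencing, 14 rose, 2 fell and 4 did not pass (list median 0.35 on the log2 scale). That is 70% higher and 10% lower, against 33.6% and 34.9% of all tested features. The count of rises was 6 once the trend with coding length was taken out, 9 without manganese-adapted replicate 1 and 8 without manganese-adapted replicate 2. TLC1, the telomerase RNA, was at 107 and 98.8 CPM in manganese-adapted and at 279 and 269 CPM in control libraries (-1.40 ± 0.08 SE, limma adjusted p 3.22e-07), and EST3 (-0.90), a telomerase subunit, also fell. SGS1 (1.18), a RecQ helicase, and EST2 (0.88), the reverse transcriptase subunit of telomerase, rose.

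Summed over all copies, so that the division of counted reads among the copies of a family no longer matters, each of the 6 families was higher in the manganese-adapted libraries. The sums are values with no test, and they hold counted reads only: if reads shared by several copies were dropped, the sums lack them. The IMA sum was 109 ± 11.5 CPM in manganese-adapted and 40.5 ± 3.35 CPM in control libraries, a ratio of 2.70 (SD, n = 2 each, here and for the next sums). The AAD sum was 552 ± 9.08 CPM in manganese-adapted and 329 ± 28.0 CPM in control libraries, a ratio of 1.68. Most of that difference came from AAD10, with means of 347 CPM in manganese-adapted and 159 CPM in control libraries. The MAL sum was 811 ± 8.49 CPM in manganese-adapted and 568 ± 36.6 CPM in control libraries, a ratio of 1.43. It joins permease, maltase and activator genes, which are not copies of each other. The maltase pair MAL12 and MAL32 within it went the other way, with a ratio of 0.76.
The COS sum was 721 ± 19.9 CPM in manganese-adapted and 595 ± 20.0 CPM in control libraries, a ratio of 1.21. The YRF1 sum was 3.16 ± 0.33 CPM in manganese-adapted and 1.67 ± 0.14 CPM in control libraries, a ratio of 1.89. The MPH sum was 5.68 ± 1.46 CPM in manganese-adapted and 3.26 ± 1.00 CPM in control libraries, a ratio of 1.74. In every family both adapted sums lay above both control sums. Among single features, 42.4% of all those tested had both adapted libraries above both controls. The MPH log2 ratio of 0.80 was 0.51 without manganese-adapted replicate 2, 0.52 without control replicate 2 and 1.15 without control replicate 1.

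**Figure D4:**
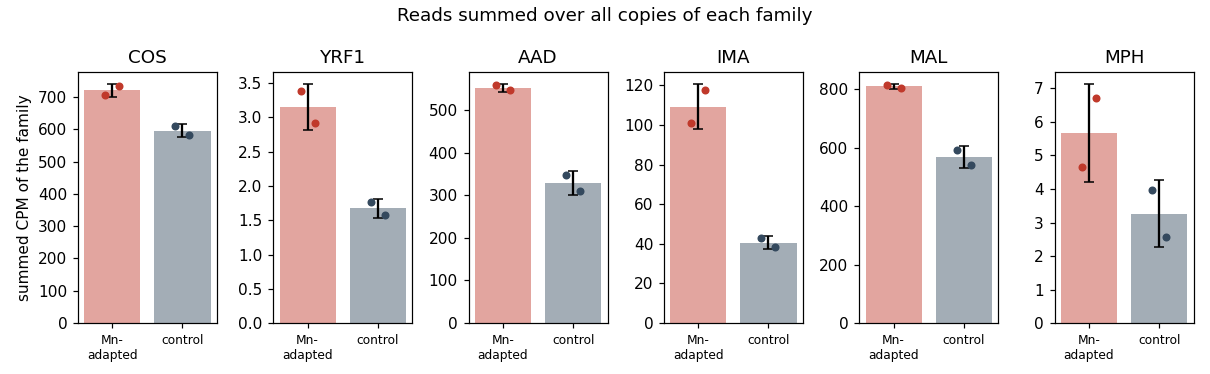
Summed CPM of all copies in each family, as the mean of 2 manganese-adapted libraries (red, left) and 2 control libraries (dark, right), with bars for the SD and points for the libraries. The ratio of means is 2.70 for IMA, 1.89 for YRF1, 1.74 for MPH, 1.68 for AAD, 1.43 for MAL and 1.21 for COS, and each panel has its own axis from 0. The MAL sum includes the maltase pair MAL12 and MAL32, whose own ratio is 0.76. In the AAD sum, AAD10 alone has means of 347 CPM in manganese-adapted and 159 CPM in control libraries.

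All 38 family members placed in R64 lie within 25 kb of a chromosome end, from 0.222 kb (YRF1-1) to 24.3 kb (IMA5), over 20 ends of 15 chromosomes. Members of 1 end did not share a direction throughout. On the right end of chromosome VII, YRF1-3 is nearest the end, followed by COS6, MAL12, MAL11, MAL13 and IMA1, whose log2 fold changes were 0.11, -0.62, 0.54, 0.72 and 1.21. On the right end of chromosome II, MAL32, MAL31 and MAL33 were at 0.28, 0.72 and 0.03, and only MAL31 passed. On the left end of chromosome IV, COS7 (1.05) rose, AAD4 (-0.20) did not pass, and MPH2 was at 0.85.

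The other genes near chromosome ends were also higher in many cases. Of 291 other features within 25 kb of an end, 221 were tested, of which 120 (54.3%) rose and 46 (20.8%) fell, around a median of 0.45 on the log2 scale. Over all tested features 33.6% rose and 34.9% fell. Among the 28 tested members of the 6 families, 16 (57.1%) rose and 2 (7.14%) fell, around a median of 0.51, so the share of rises is close to that of the other genes near the ends. Without features that reached the minimum in 1 group only, 14 of 26 members (53.8%) rose, against 110 of 207 other genes (53.1%) and 33.2% of all features left. By distance, a split chosen after the values were seen, 38 of 50 other genes within 10 kb rose, as did 55 of 106 between 10 and 20 kb and 27 of 65 between 20 and 25 kb. The tested members in the same bins rose in 9 of 15, 4 of 9 and 3 of 3 cases, and the last 3 are the IMA genes. Without features that reached the minimum in 1 group only, the counts within 10 kb were 7 of 13 members and 31 of 42 other genes. The largest changes among these other genes were those of FDH2 (3.70) and FDH1 (3.34), near-identical formate dehydrogenase genes whose split is uncertain, DIA1 (3.55), a gene of invasive growth, and PHO89 (3.31), a phosphate transporter.

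**Figure D5:**
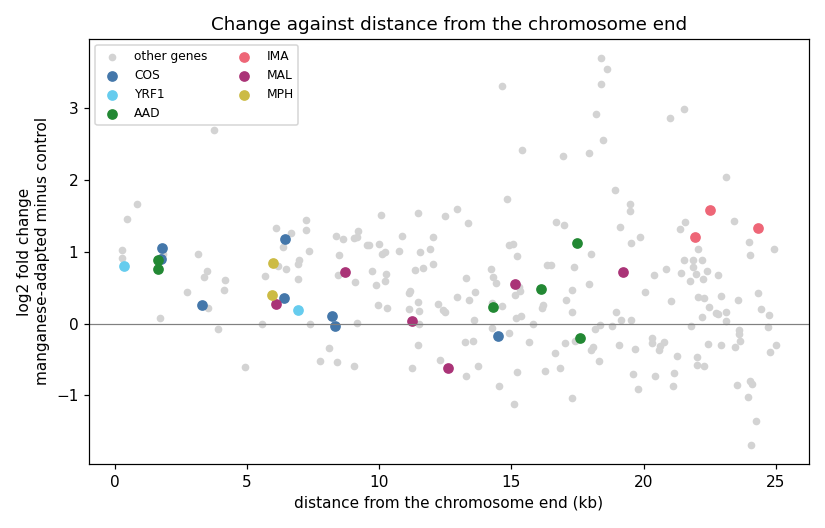
Log2 fold change (manganese-adapted minus control) against distance from the chromosome end in kb, for 27 tested family members placed in R64 (coloured by family) and 221 other tested genes within 25 kb (grey). Within 10 kb of an end 38 of the 50 grey points and 9 of the 15 family members rose past the threshold, and the 3 IMA genes lie beyond 20 kb. Over all tested features 33.6% rose and 34.9% fell. Leaving out features that reached 1 CPM in 1 group only, the counts within 10 kb were 31 of 42 grey points and 7 of 13 family members.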

How the data were processed

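RNA-seq of 4 samples was analysed from 1 deposited table. Its 4 per-sample columns hold CPM made by the authors; edgeR's TMM-scaled CPM, recomputed here, differed from the deposited values by at most 3.95e-06. Every value lay within 0.001 reads of a whole number of reads, so reads were recovered. The deposited log2 fold changes and false discovery rates (adjusted p-values) are the authors' own comparison. The tools listed, per the submitters' processing notes, are edgeR, HTSeq, Bowtie, TopHat2 2.0.13 and cutadapt 1.8.1, and the build is sacCer3. Whether counting used strand or multiply mapped reads is not stated there, so reads of copies or antisense genes cannot be assigned with certainty. Intervals and floors cover counting error only.

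Limma-trend (limma 3.58.1, R 4.3.3) was run on log2(CPM + 1) over 6296 features with at least 1 CPM in 2 samples, with Benjamini-Hochberg adjustment at 0.05 and 2 residual degrees of freedom. Fold changes understate low genes. Fits with 1 sample left in a group take their within-group spread from the other group only. Whether a gene passed in them does not measure the spread of the reduced group. On reads simulated for this comparison (6228 genes tested), limma recovered 96% of 1.5-fold and 100% of 2-fold changes, with 8 false calls. The simulation changed only 50 genes at each fold, all above a minimum control level, and gave every gene the same dispersion. In the data 68.5% of tested features were called, so these rates do not carry over to the data or to members of low level. edgeR 4.0.16 and DESeq2 1.42.0 on recovered reads were alternatives. Positions, overlaps, 50-base windows, identities (Biopython 1.88, global alignment) and sequences come from R64 RefSeq, to which 39 of 40 members were matched by locus tag; AAD16 was not. Promoters span 300 bases. Members and lists were chosen with earlier results of these data known. Per-sample values are given for members changed at least 2-fold and past the threshold and for the 2 of highest mean CPM per family, with others added for the account of every member; up to 4 changed genes are named per list.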

Additional observations from a re-analysis of the deposited data

How the results depend on the processing

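The alternatives were pseudocounts of 0.1 and 10, no filter or 10 CPM, edgeR, DESeq2, library size only, upper-quartile scaling, removal of the coding length trend, a replicate block and leaving out each sample. The count of members that rose (17) and of all features called (4313) stayed within 1.5 times under each, and 14 of the 19 called members kept their call under every alternative that tested them; AAD15, AAD16, MAL12, MPH2 and YRF1-2 did not. The count of members that fell (2) was 1 in the fit without the coding length trend and 0 to 2 with a sample left out. Among the lists, that fit gave 0 DUP240 genes lower (main count 2), 6 telomere genes higher (14), 0 aldo-keto reductase and YAP1 genes higher (1) and 5 sucrose and maltose regulators lower (2). DESeq2 and library size only each gave 1 DUP240 gene lower. With a sample left out, 1 to 2 DUP240 genes were lower and 8 to 14 telomere genes higher. The direction of 3 members that had not passed changed: MAL33 to -0.044 and YRF1-4 to -0.15 in the fit without the length trend, and, with a sample left out, MAL33 ran from -0.073 to 0.14 and COS1 from -0.18 to 0.10. With the replicate block 17 members rose and 2 fell, and 4196 features were called. Deviations of same-numbered samples correlated at -0.18 across genes. With 2 samples per group this single value cannot tell whether same-numbered samples were handled as pairs. With the crossed pairing, added after seeing the data, 18 members rose and 2 fell. Leaving out features that reached the minimum in 1 group only, also added after seeing the data, left 15 members that rose and 2 that fell. The cause of these changes was not tested. YRF1 and MPH genes with reads had 5 to 56 per library, and what depth and their 1.22% to 2.75% of unique windows each contribute cannot be told apart; 3 reads are the floor of genes at 0. Genes without an R64 length were not tested in the fit without the length trend, and MPH2 and YRF1-2 were not tested without either manganese-adapted replicate or at 10 CPM.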
